A study of Homo sapiens with 8 samples.

Results

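A set of 371 genes without a gene symbol, of 34308 such genes and 60664 genes in all, was almost silent in parental THP-1 cells and detected after treatment with decitabine (DAC). The members were chosen by level, as genes with an Ensembl identifier and no symbol whose mean was under 0.05 FPKM in parental cells with DMSO and at least 0.5 FPKM in parental cells with DAC (FPKM, fragments scaled to exon length and sequencing depth). This choice used the parental libraries, so the rise in parental cells is a description and was not tested. A further 401 genes that carry a symbol met the same levels. Of all 35750 genes under the DMSO limit, 2.16% reached the DAC level.

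THP-1 is a human monocytic leukaemia cell line. RNA-seq was made from parental cells with DMSO, parental cells with 1 µM DAC, DAC-resistant cells with DMSO and DAC-resistant cells with 1 µM DAC, each for 6 days and each in 2 biological replicates. The DAC-resistant line had been derived from THP-1 by repeated cycles of DAC with drug-free culture between them. Its DMSO control had thus also met the drug earlier. Per the methods of the study, the selected cells were kept in drug-free medium for at least 2 weeks before experiments. The number of clones the line represents was not given in the sources used here. Between 28802200 and 33514563 reads on genes were recovered in each library, which is somewhat more than the library sizes implied by the deposited scaling (27480502 to 31916835), for a reason that is unknown. Genes without a symbol took 4.15% to 4.23% of them in parental cells with DMSO, 4.87% to 5.00% with DAC, and 2.92% to 3.08% in DAC-resistant cells. Of a list of 10 myeloid genes, 9 were at 1 FPKM or more in every library.

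Decitabine is a cytidine analogue that is built into DNA and traps DNA methyltransferases, so that newly made DNA loses methylation at CG dinucleotides. Genes that are kept silent by promoter methylation, such as germline genes, can then be transcribed, and so can long non-coding RNAs (lncRNAs) and sequence that has no known function. Pseudogenes are copies of genes that have lost their coding function, and processed pseudogenes are copies made from spliced mRNA and inserted elsewhere without the parent gene's promoter.

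GENCODE v44, an annotation of the same GRCh38 (hg38) genome, listed 366 of the 371 members and gave a name to 212 of them. There were 120 lncRNAs, 111 pseudogenes, 109 small RNA genes or small RNA pseudogenes, 14 immunoglobulin or T cell receptor segments, 6 protein-coding genes and 6 genes of the class TEC, whose status awaits experiment. Small RNAs made up 29.4% of the members and 15.2% of all genes without a symbol, whereas pseudogenes made up 29.9% and 40.3%. The 401 genes with a symbol were of another make-up, with 299 protein-coding genes and 47 lncRNAs.

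The reads behind these levels differed widely. Whole reads were recovered from the steps of the deposited values, and 116 members had at least 10 reads in both parental DAC libraries. Another 155 had 1 to 9 reads in the lower library, and 100 had no read in one of the libraries. A level of 0.5 FPKM is only a few reads for a short gene, and the median exon length was 105 bases for the small RNAs, of which 1 of 109 reached 10 reads. Of the lncRNAs 60 of 120 did so, and of the pseudogenes 44 of 111. When the levels were read in the opposite direction, 136 genes without a symbol were under 0.05 FPKM with DAC and at 0.5 FPKM or more with DMSO, but only 9 of those had 10 reads in both DMSO libraries. The 116 members with 10 reads are therefore given separately below, and are called the well-covered members. All 116 were higher in both DAC libraries than in both DMSO libraries of parental cells, which the choice of members largely fixes, and so were 271 of the 371. Nearest the DAC limit, ENSG00000287210 lay inside at 0.5021 FPKM with 6 and 3 reads, followed by ENSG00000244471 at 0.5025 FPKM with 62 and 63 reads and ENSG00000237903 at 0.504 FPKM with 2 and 10. ENSG00000266282 lay outside at 0.498 FPKM with 5 and 1 reads, followed by ENSG00000219702 at 0.4967 FPKM with 4 and 4 and ENSG00000267336 at 0.4963 FPKM with 15 and 14. At the DMSO limit ENSG00000228817 was inside with 0.04997 FPKM and ENSG00000285744 outside with 0.05007 FPKM.

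**Figure D1:**
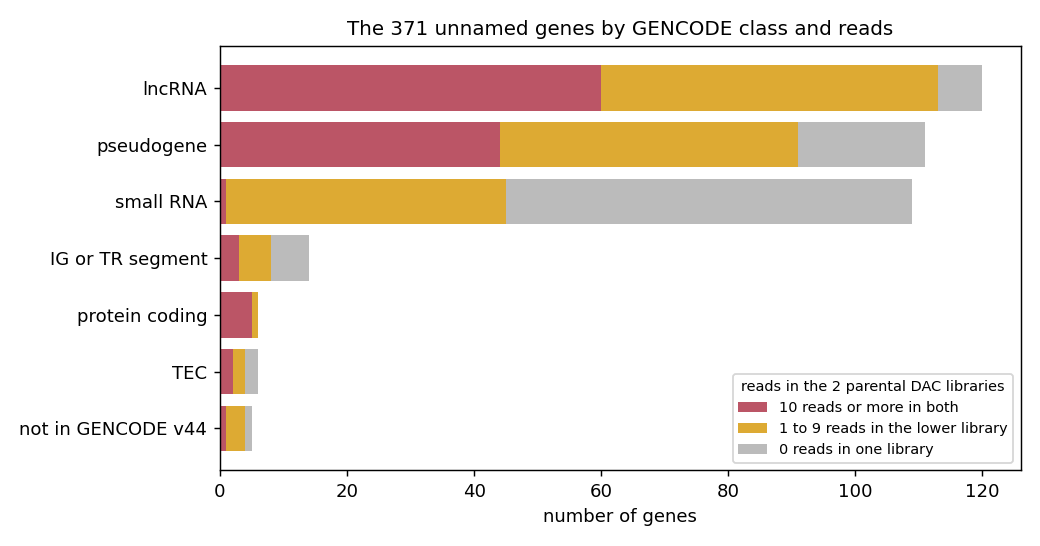
Number of members (horizontal axis) in each GENCODE class, split by the reads recovered in the 2 parental DAC libraries. The lncRNA and pseudogene bars hold 60 and 44 of the 116 members with at least 10 reads in both libraries, and the small RNA bar holds 1.

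The windows around the annotated starts of 3 members are shown, 250 bases before to 50 bases after the start, read from hg38 on the gene's strand, with each CG in capitals. The first pair, classed as a pseudogene and a lncRNA, are among the highest members after DAC, with 11 and 0 CG dinucleotides. The last is a pseudogene next to the interferon-induced gene IFI44, with 2. The windows are chrX:97847013-97847312 (+), chr12:55585422-55585721 (-) and chr1:78666022-78666321 (+), in this order.
ENSG00000233887: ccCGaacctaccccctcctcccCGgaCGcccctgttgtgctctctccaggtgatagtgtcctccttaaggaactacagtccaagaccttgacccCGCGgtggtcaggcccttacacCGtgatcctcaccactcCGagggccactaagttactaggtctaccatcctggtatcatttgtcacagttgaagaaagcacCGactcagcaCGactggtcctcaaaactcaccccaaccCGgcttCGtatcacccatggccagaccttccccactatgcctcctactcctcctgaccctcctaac
ENSG00000258763: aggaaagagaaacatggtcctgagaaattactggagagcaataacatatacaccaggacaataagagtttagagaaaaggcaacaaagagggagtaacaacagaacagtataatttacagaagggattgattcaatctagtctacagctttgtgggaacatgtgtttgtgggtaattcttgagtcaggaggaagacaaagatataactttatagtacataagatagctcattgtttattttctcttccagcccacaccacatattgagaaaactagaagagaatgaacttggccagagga
ENSG00000238015: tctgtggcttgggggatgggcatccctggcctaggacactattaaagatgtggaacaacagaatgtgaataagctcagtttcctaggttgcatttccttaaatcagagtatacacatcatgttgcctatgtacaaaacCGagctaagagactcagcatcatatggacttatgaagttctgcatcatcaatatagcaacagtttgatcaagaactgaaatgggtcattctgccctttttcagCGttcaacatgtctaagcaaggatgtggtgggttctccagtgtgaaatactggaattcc

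Among the pseudogenes 1 stood far above the rest. ENSG00000233887, classed in GENCODE as a processed pseudogene, lies on chromosome X (chrX:97847263-97849017, + strand). It had 0 FPKM in both parental DMSO libraries and 67.8 and 65.2 FPKM in the DAC libraries, from 3272 and 3144 reads. It was at least 2413-fold higher with DAC when the DMSO group is set at 3 reads in all. In DAC-resistant cells it had 0 and 0.0190 FPKM with DMSO and 0 and 0.0186 FPKM with DAC, a single read at most. It held 15.0% of the summed FPKM of all 371 members in parental cells with DAC, and no gene with a symbol lay within 100 kb of it.

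Other members among the 12 highest, mostly pseudogenes, were lower. ENSG00000121388, on chromosome 13 (chr13:19185225-19187349, + strand), had 4.41 and 5.675 FPKM with DAC and 0 in the other 6 libraries. Its nearest gene with a symbol, TUBA3C, a testis alpha-tubulin gene 3401 bases away on the other strand, was at 0 FPKM with DMSO and 21.0 FPKM with DAC in parental cells. RN7SKP203, a copy of the small nuclear RNA gene RN7SK that is grouped here with the small RNAs, had 0 and 0.0993 FPKM with DMSO and 5.15 and 3.84 FPKM with DAC. H2BP1, a copy of a histone H2B gene, went from 0.0417 and 0.0436 FPKM to 4.86 and 3.51 FPKM. MT2P1, a copy of the metal-binding protein gene MT2A, had no read with DMSO and 4.37 and 3.18 FPKM with DAC, and it was also read in every DAC-resistant library, at 2.60 and 1.09 FPKM with DMSO. HMGN1P17, a copy of the chromatin protein gene HMGN1, behaved alike, with 4.07 and 2.96 FPKM after DAC and 1.40 and 1.80 FPKM in DAC-resistant cells with DMSO. ENSG00000232383 and RPL7AP28, copies of ribosomal protein genes, had 4.41 and 2.39 FPKM and 2.87 and 3.38 FPKM with DAC, no read in parental cells with DMSO, and no read in DAC-resistant cells with DMSO. The group means of all 12 highest members were between 3.12 and 66.5 FPKM, and only RNA5SP149, with 14 and 7 reads, was not among the well-covered members.

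Pseudogenes share sequence with their parent genes, so reads from a parent can be given to its copy. Of the 44 well-covered pseudogenes, 39 matched a protein-coding transcript and 32 matched over at least 80% of their length, at a median identity of 89.1% (range over these 32 70.7% to 99.7%). Only 2 were at 99% identity or more. ENSG00000233887 had no match, so no parent gene was found for it, and its class here is that of the annotation alone. For 18 of the 32, the best-matching gene was at 10 FPKM or more in parental cells with DMSO, and the median of the best-matching genes was 16.3 FPKM with DMSO and 18.2 FPKM with DAC. RPL23, the best match of ENSG00000232383 at 89.9% identity, was at 158 FPKM with DMSO and 79.1 FPKM with DAC, and RPL7A, the best match of RPL7AP28 at 82.0%, at 721 and 325 FPKM. CHCHD2, the best match of ENSG00000270980 at 88.4%, was at 148 and 258 FPKM. MT2A, at 97.3% identity to MT2P1, went from 2.49 to 23.8 FPKM, with 19.5 FPKM in DAC-resistant cells with DMSO. H2BC18, at 97.9% identity to H2BP1, went from 0.303 to 4.15 FPKM, which is close to the level of H2BP1 itself. The part of shared reads in the values of the pseudogenes was not tested.

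Among the lncRNAs the highest after DAC was ENSG00000258763, which spans chr12:55434734-55585471 (- strand) across a cluster of olfactory receptor genes. It had no read with DMSO in either cell line, 5.07 and 5.61 FPKM in parental cells with DAC, and 1 read in 1 of the DAC-resistant libraries with DAC. The olfactory receptor gene OR6C2, which it overlaps on the other strand, was at 0.00861 FPKM with DAC. The 60 well-covered lncRNAs, ENSG00000258763 among them, had a median of 0.831 FPKM after DAC.

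T cell receptor and immunoglobulin segments, which are joined by recombination in lymphocytes to make antigen receptors, contributed 14 members. TRBV20OR9-2, an orphan T cell receptor variable segment on chromosome 9, went from 0 in both DMSO libraries to 5.07 and 2.71 FPKM. The largest run of neighbouring members lay at the T cell receptor alpha and delta locus on chromosome 14, with TRDV2, TRDD2, TRDJ4, TRDC, TRAJ49, TRAJ41, TRAJ23 and TRAJ3. TRDV2 had 12 and 13 reads with DAC and TRDC 8 and 32, whereas the other 6 were short segments of few reads. None of the 8 had a read in DAC-resistant cells with DMSO. The summed level of 5 T cell marker genes was 0 to 0.0103 FPKM in parental cells with DMSO and 0.507 to 0.737 FPKM with DAC. CD3D, CD3E, CD3G and CD2 were at 0 in both DMSO libraries, and CD3D reached 0.284 and 0.426 FPKM with DAC. CD8A was at 0 in both DAC libraries. Marker lists of other cell types were higher in the same DAC libraries too, with sums of 0.755 to 0.839 FPKM and 14.5 to 14.8 FPKM for 5 fibroblast genes and 0.110 to 0.186 FPKM and 1.48 to 1.98 FPKM for 5 epithelial genes. Their part in the levels of the segments was not tested.

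Members that lay within 100 kb of another formed 23 runs with 57 members, of which 6 runs held 3 or more. Apart from the T cell receptor run, these were 3 lncRNAs at chr2:195448532-195572970, including LINC01827, the immunoglobulin lambda segments IGLC2, IGLJ3 and IGLC3 on chromosome 22, the TAF11-like genes TAF11L11, TAF11L13 and TAF11L14 on chromosome 5, LINC02964 with SOD1P3 and ENSG00000254227 on chromosome 8, and the mitochondrial transfer RNAs MT-TG, MT-TH and MT-TS2. TAF11L11 had 0 and 0.0549 FPKM with DMSO and 0.999 and 0.939 FPKM with DAC, and TAF11L14 had 0 in both DMSO libraries and 1.53 and 0.858 FPKM with DAC. The multicopy TSPY9 on chromosome Y, which belongs to a testis-specific family, had 14.3 and 4.005 FPKM with DAC and 0 in the other 6 libraries, so its replicates differed more than those of any other gene among the 5 highest members. TSPY, TAF11L and IGLC genes have near-identical copies, and the split of reads between copies is uncertain.

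Many members lay close to or within genes that carry a symbol. Of the 366 with a position, 171 overlapped such a gene, 70 on the same strand and 104 on the other, and 35 had none within 100 kb. Exons overlapped on the same strand for 8 members and on the other strand for 24. Because the strand setting of the counting was not given, reads of overlapping genes cannot be told apart there. Of the nearest genes with a symbol, each counted once, 268 had a mean of at least 0.1 FPKM in parental cells with DMSO or DAC. Their median log2 difference between DAC and DMSO in parental cells was 0.25. It was 0.15 over 17012 genes with a symbol that had at least 0.1 FPKM in 2 of 8 libraries. For 28.4% of these neighbours it was 1 or more, beside 15.99% of the 17012. The filters of neighbours and background differ, so the shares are not a like comparison. For neighbours of the well-covered members the median was 0.52 and the share 36.4% of 77 genes. These are descriptions, since the same parental libraries chose the members.

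Some members lay within 100 kb of interferon-stimulated genes from a list of these. ENSG00000238015, a processed pseudogene at chr1:78666272-78666695 (+ strand) that resembles RPL23, began 2194 bases downstream of IFI44, whose product is induced by interferon. It had 0 FPKM with DMSO and 2.49 and 2.75 FPKM with DAC, while IFI44 had 0.738 and 100.2 FPKM. ENSG00000273443, near ISG15, had 14 and 10 reads with DAC and none with DMSO. Cancer-testis genes, which are silent outside the germline and some tumours, lay near 3 members. MAGEA4-AS1, on the other strand of MAGEA4, had 1.19 and 0.298 FPKM with DAC and 0 in the other 6 libraries, while MAGEA4 went from 0.191 to 17.2 FPKM. ENSG00000229269 near SPANXB1 and S100A11P7 near SSX1 were each read in only 1 DAC library, with 8 and 4 reads. ENSG00000288681, a protein-coding gene that shares exons with the antiviral genes IFITM1 and IFITM2, had 3.52 and 2.57 FPKM with DAC. Also overlapping such genes, and chosen after their values were seen, were LY6E-DT, which overlaps LY6E (7.00 FPKM with DMSO and 123 FPKM with DAC), and ENSG00000229271, within the germ cell gene DAZL (0 and 21.8 FPKM).

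The start windows were compared with those of other genes. Well-read members had a median of 7 CG dinucleotides per window, beside 4 for all 366 members with a window, 3 for all genes without a symbol and 5 for all genes. A closer comparison is with other genes without a symbol that also had 10 reads in both parental DAC libraries. Among lncRNAs, 38.3% of the 60 members and 43.96% of 1688 other genes had 10 or more CG. Among pseudogenes, the shares were 47.7% of 44 and 37.9% of 1028. The 350 genes with a symbol that met the same levels and reads held a median of 9.

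**Figure D2:**
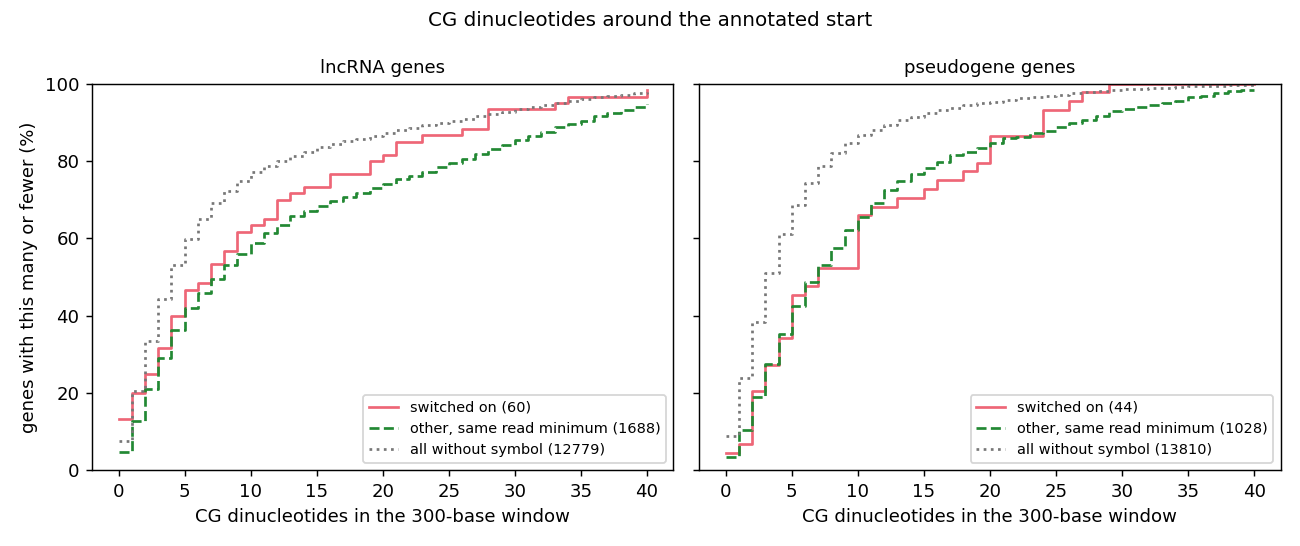
Cumulative percentage of genes (vertical axis) against the number of CG dinucleotides in the 300-base start window (horizontal axis), for lncRNAs and pseudogenes. At 9 CG or fewer, the solid line of well-covered members (60 and 44 genes) is at 61.7% and 52.3%, the dashed line of other genes with the same read minimum (1688 and 1028) at 56.0% and 62.1%, and the dotted line of all genes without a symbol at 74.8% and 84.7%.

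Short motifs were searched on both strands of these windows. The TATA box letters TATAAA were in 21.3% of member windows, 11.3% of well-covered ones, 21.4% of those of all genes without a symbol and 17.2% of those of all genes. GGGCGG, the core bound by SP1-type factors, was in 15.3%, 27.0%, 13.2% and 27.1%. CCAAT was in 36.1%, 29.6%, 36.9% and 36.5%. The core of the interferon-stimulated response element (ISRE) was in 4.64%, 4.35%, 4.78% and 4.23%. These backgrounds were not matched on reads. GGGCGG was in 30.0% of well-covered lncRNA members and 33.4% of other lncRNAs without a symbol with the same read minimum. For pseudogenes the shares were 22.7% and 20.9%. TATAAA was in 13.3% and 13.6% for lncRNAs, and in 6.82% and 18.4% for pseudogenes. The other motifs were AGATAA of GATA factors, in 14.8% of member windows and 14.0% of those of all genes, GAGGAAGT of PU.1 in 2.19% and 2.00%, CACGTG in 5.19% and 5.52%, TTCNNNGAA of STAT factors in 7.92% and 8.01%, and TGACGTCA in 0.546% and 1.06%. The ISRE core was in the window of ENSG00000258763 and not in that of ENSG00000238015.

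DAC-resistant cells with DMSO held most members at a low level. Of the 371, 46 (12.4%) were at 0.5 FPKM or more, beside 0.85% of the 35750 genes under the parental DMSO limit, a background that also includes genes without a read in any library. With DAC the count was 55 (14.8%), beside 0.898%. Of the genes with a symbol that met the same parental levels, 62 (15.5%) were at 0.5 FPKM or more with DMSO. Both comparisons share the parental libraries that chose the members. For the well-covered members the count was 23 of 116 (19.8%) with either treatment. Each gene's level in DAC-resistant cells with DMSO was taken as a percentage of its level in parental cells with DAC, and the median of these percentages was 2.82%. Of the 116, 47 had no read in either library. Fewer cells with a transcript and less transcript per cell cannot be told apart in such bulk libraries.

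Of the well-covered members, 8 were higher in both DAC-resistant DMSO libraries than in both parental DAC libraries, a pattern seen in 19.1% of the 39592 genes above 0 in any library. The highest was LINC02506, a lncRNA at chr4:31997376-32228543 (+ strand) with no gene with a symbol within 100 kb. It had 0.0629 and 0 FPKM in parental cells with DMSO, 1.22 and 0.853 FPKM with DAC, 9.14 and 10.2 FPKM in DMSO-treated DAC-resistant cells and 10.98 and 11.31 FPKM with DAC. LINC03046 (chr10:101701994-101730037, - strand) had 0 and 0 FPKM, 1.27 and 1.51 FPKM, 4.89 and 4.95 FPKM, and 5.38 and 4.14 FPKM in the same order. Both thus had an intermediate level in parental cells with DAC, without overlap between these groups. ENSG00000272094, another lncRNA, had 1.53 and 1.08 FPKM in parental cells with DAC and 2.96 and 4.13 FPKM in DAC-resistant cells with DMSO. The other 5 were LINC01827, ENSG00000250735, and the pseudogenes ENSG00000204790, ENSG00000248347 and RPS8P4. BOK-AS1, on the other strand of the BCL2-family gene BOK, had 4.58 and 5.38 FPKM in DMSO-treated DAC-resistant cells and only 12 and 7 reads in parental cells with DAC. ENSG00000276118, the highest member by mean in DAC-resistant cells with DMSO, is 96 bases long and its replicates were far apart, at 20.5 and 2.77 FPKM.

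**Figure D3:**
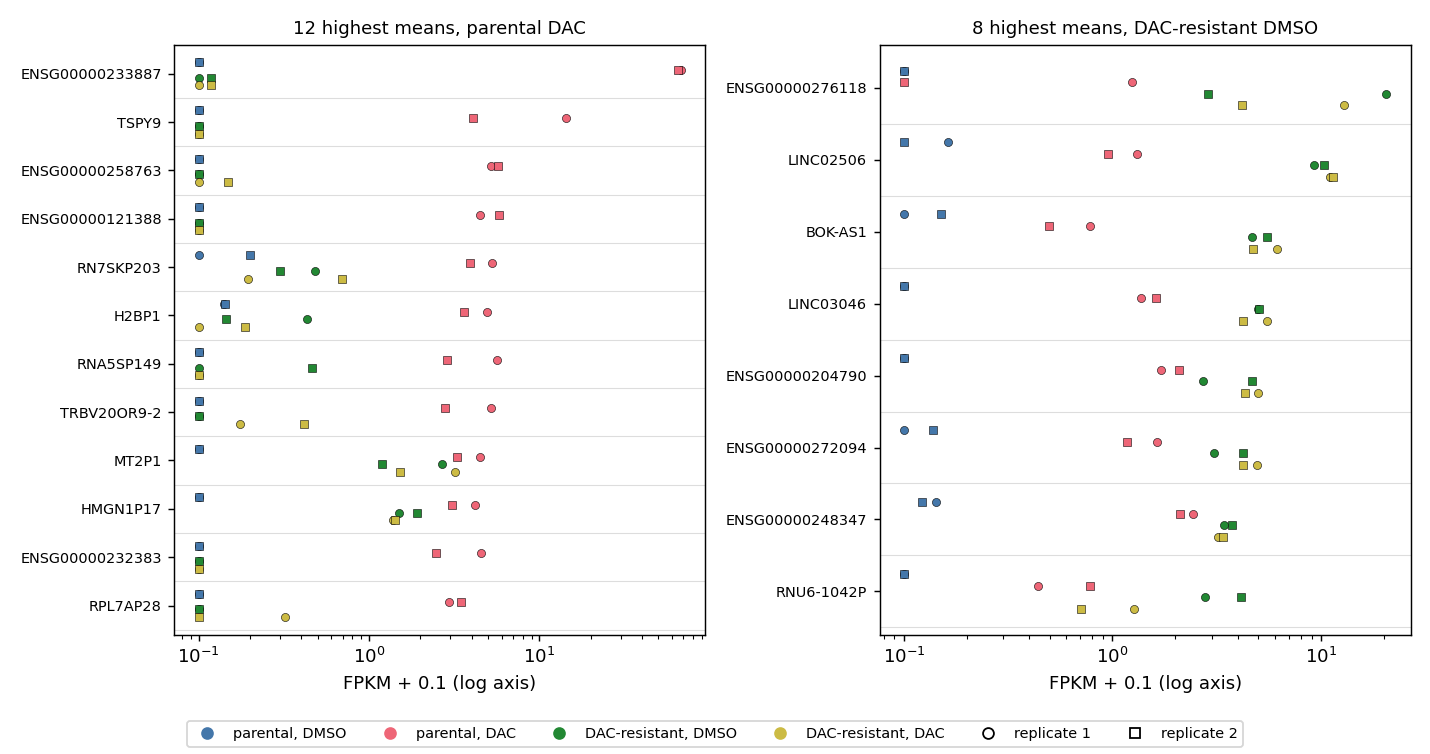
FPKM + 0.1 (horizontal log axis) in each of the 8 libraries for the 12 members with the highest mean in parental cells with DAC (left) and the 8 with the highest mean in DAC-resistant cells with DMSO (right), with circles for replicate 1 and squares for replicate 2. ENSG00000233887 lies near 66.5 FPKM in parental cells with DAC and at the left edge elsewhere, and LINC02506 lies higher in the 4 DAC-resistant libraries than in the 4 parental ones.

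DAC against DMSO within DAC-resistant cells compared libraries that did not choose the members, and it was tested with limma on log2(FPKM + 0.1). The fit took its spread and its filter on low values from all 8 libraries, the parental ones included. A gene was called where the p before adjustment did not exceed 0.01 and the log2 difference was at least 1 in size. Of the 371 members 306 passed the filter of 0.1 FPKM in 2 libraries, and 8 of the 306 were raised and 5 lowered. Of all 26751 genes tested, 154 (0.576%) were raised and 139 (0.52%) lowered. Of all 9739 tested genes without a symbol, members included, 110 were raised and 106 lowered. Of the 391 tested genes with a symbol that met the same parental levels, 2 were raised and 1 lowered. With a pseudocount of 1 FPKM the counts were 3 and 1, and without replicate 2 of the DMSO group 5 and 8. With voom on recovered reads they were 4 and 0, while 8 members were higher and 2 lower at an unadjusted voom p under 0.05. With the 4 DAC-resistant libraries alone, 114 members passed the filter and 11 were raised and 6 lowered, beside 140 raised and 123 lowered of all 21108 genes tested. Of the 306 tested members, 58 were at 0 in both DAC-resistant groups, so their median difference is not read here. Passing the filter required reads in some libraries, and 4 of the 8 raised and 3 of the 5 lowered members had under 10 reads in every DAC-resistant library. Among the 116 well-covered members, all of which were tested, 3 were raised and 1 lowered.

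IGLC2, the constant region of an immunoglobulin lambda light chain (chr22:22900976-22901437, + strand), had the largest difference. It had 0.0686 and 0 FPKM in DMSO-treated DAC-resistant cells and 12.1 and 20.6 FPKM with DAC, from 1, 0, 178 and 291 reads. The log2 difference was 6.93 ± 0.51 (SE, n = 2 per group, limma adjusted p = 0.00423). In parental cells it had 0 FPKM with DMSO and 0.866 and 2.205 FPKM with DAC, so its level after DAC was higher in both DAC-resistant libraries than in both parental ones. Its neighbour IGLC3 had 0.0686 and 0.216 FPKM with DMSO and 9.36 and 24.1 FPKM with DAC in DAC-resistant cells, a log2 difference of 6.03 ± 0.81 (limma adjusted p = 0.0188). Both were also called by voom on the recovered reads. IGLL5, the nearest gene with a symbol, was at 1.42 FPKM with DMSO and 1.38 FPKM with DAC in the same cells. The summed level of 5 plasma cell markers was 6.44 and 6.73 FPKM with DMSO and 6.92 and 7.57 FPKM with DAC, and that of 5 B cell markers was 2.40 and 2.95 FPKM and 2.20 and 1.57 FPKM.

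Of the lncRNAs, ENSG00000260877 and ENSG00000287313 were raised. ENSG00000260877 (chr11:69299274-69372512, + strand), which shares exon sequence with MYEOV on the same strand, had 0.170 and 0.0894 FPKM with DMSO and 0.758 and 1.14 FPKM with DAC, a log2 difference of 2.19 ± 0.42 (limma adjusted p = 0.0506). MYEOV itself was at 0.359 FPKM with DMSO and 0.470 FPKM with DAC. ENSG00000287313 (chr2:38408719-38412627, + strand) had 0.507 and 0.840 FPKM with DMSO and 1.899 and 1.759 FPKM with DAC, a log2 difference of 1.35 ± 0.26 (limma adjusted p = 0.0512). Groups of both genes did not overlap, and the adjusted p was above 0.05 for both. Each kept its call in 6 of 9 alternatives, and lost it with a pseudocount of 1 FPKM, without replicate 2 of either group for the first, and without either DAC replicate for the second. The other 4 raised members were the small RNA genes ENSG00000274868, U8 (ENSG00000239142) and ENSG00000223188 (Y_RNA) and the pseudogene ENSG00000256843, with at most 8 reads in any DAC-resistant library. ENSG00000223188 kept its call in 4 and ENSG00000256843 in 3 of 8 alternatives.

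The lowered members were of low depth. ENSG00000238015, the pseudogene beside IFI44, had 0.224 and 0.157 FPKM with DMSO and 0 with DAC in DAC-resistant cells, from 3, 2, 0 and 0 reads. Its log2 difference was -1.53 ± 0.25 (limma adjusted p = 0.0339), and IFI44 was at 15.9 and 12.5 FPKM. The pseudogene was not called by voom, with a pseudocount of 1 FPKM or in the 4 DAC-resistant libraries alone. The other 4 were the small RNA genes RNU6-1316P, ENSG00000252367 (Y_RNA), RN7SL471P and RNU6-1042P, with at most 13 reads. RNU6-1042P kept its call in 4 of 8 alternatives.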

How the data were processed

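Per the methods of the study, mRNA libraries were sequenced on an Illumina platform, trimmed with cutadapt 1.9.1, aligned to hg38 with HISAT2 2.1.0 and counted on Ensembl genes with HTSeq 0.13.5. The strand setting was not given in the sources used here. The deposited values were FPKM multiplied by 1000, made by the authors, and were divided by 1000. Members and gene lists were chosen with earlier results of these data known.

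Whole reads were recovered from the steps of FPKM with GENCODE v44 exon lengths (34778 genes) or steps between libraries (4814), within 0.001 of a whole number. Of the members 339 were solved by length and 32 by steps. These reads give the depth, and they cover counting error only.

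Values of log2(FPKM + 0.1) of 26751 genes with at least 0.1 FPKM in 2 of 8 libraries were fitted with limma 3.58.1 (R 4.3.3) as 4 group means with a variance trend. The fit was tested on simulated data. Fold changes are on the log2(FPKM + 0.1) scale and understate the change of low genes. P-values were adjusted over all tested genes by the Benjamini-Hochberg method. An exact permutation test of 2 against 2 libraries cannot go below p = 0.333. The labels call the replicates biological, and nothing says that they came from separate cultures, so p-values may measure technical spread only. Pseudogenes were matched to protein-coding transcripts of GENCODE v44 with BLAST 2.17.0 (same strand). Promoter windows came from hg38. Figures used matplotlib 3.10.9.

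Genes named were the 12 highest in parental cells with DAC, the 8 highest in DAC-resistant cells with DMSO, those called in DAC-resistant cells (up to 5 in each direction by size, the rest by name), those nearest the limits, runs of 3 or more, and neighbours of listed interferon-stimulated or cancer-testis genes. The values of 1 such neighbour and the start windows of 2 members are not reported here. Alternatives were other pseudocounts, filters and scalings, a replicate block, voom, adjusted p-values, leaving out each library, and shorter windows.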

Additional observations from a re-analysis of the deposited data

Results flagged for a closer look

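The 5 members called lowered by DAC in DAC-resistant cells were lower in both DAC-resistant libraries with DAC than in both with DMSO. In parental cells they were higher in both libraries with DAC, which the choice of members by group means largely fixes. Members with this pattern that were not called are not listed. The log2 difference in DAC-resistant cells was -1.53 for ENSG00000238015, -2.002 for RNU6-1316P (ENSG00000206969), -2.19 for ENSG00000252367 (Y_RNA), -1.43 for RN7SL471P (ENSG00000263426) and -1.83 for RNU6-1042P (ENSG00000206931). The difference between the cell lines was not tested, because the parental libraries had chosen the members. The highest count in a DAC-resistant library was 3, 1, 1, 10 and 13 reads in this order.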

How the results depend on the processing

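The counts of members called by DAC in DAC-resistant cells depended on how low values were treated. With a pseudocount of 1 FPKM, 3 members were raised and 1 lowered (19 and 19 of all genes). With at least 1 FPKM as well, the members were again 3 and 1 (17 and 18 of all genes). At an adjusted p under 0.05, 4 members were raised and 4 lowered (62 and 51 of all genes). With voom on recovered reads, 4 were raised and 0 lowered of 134 members tested (73 and 41 of all genes). At an unadjusted voom p under 0.05, 8 members were higher and 2 lower. Of the 5 members lowered by limma, only ENSG00000238015 had enough reads to be tested by voom. Leaving out each DAC-resistant library gave 5 to 11 raised and 6 to 8 lowered members, and 134 to 175 raised and 127 to 141 lowered genes in all. The lowest raised count, 5, and the highest lowered count, 8, came without replicate 2 of the DMSO group. Only well-covered members, added after seeing the data for these calls, gave 3 and 1.

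IGLC2 and IGLC3 were called in all 9 alternatives run for single genes, with adjusted p from 0.000858 to 0.0430 and from 0.00859 to 0.112. ENSG00000260877 and ENSG00000287313 were called in 6 of 9, and lost the call with a pseudocount of 1 FPKM and without a library (DMSO replicate 2 or DAC replicate 2 for the first, either DAC replicate for the second). ENSG00000238015 was called in 6 of 9, not by voom, with a pseudocount of 1 FPKM or in the 4 DAC-resistant libraries alone. U8 was called in 8 of 8, ENSG00000274868, RNU6-1316P, ENSG00000252367 and RN7SL471P in 7 of 8 each (not with a pseudocount of 1 FPKM), RNU6-1042P and ENSG00000223188 in 4 of 8, and ENSG00000256843 in 3 of 8. Where 8 alternatives are given, voom is missing, since these genes had too few reads for it. ENSG00000274868, RNU6-1316P and ENSG00000252367 had at most 1 read in any DAC-resistant library. The other settings rework the same reads, so these counts do not measure how well such calls would repeat. The cause was not tested.

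The median level in DAC-resistant cells with DMSO, taken per gene as a percentage of that in parental cells with DAC, was 0 over all members, 2.82% over well-covered ones, and 0 to 1.32% when 1 library was left out. With well-covered members only, 23 were at 0.5 FPKM or more and 116 were found. The choice of members gave 392 to 476 genes without 1 parental library and 348 with TPM.

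In the 100 bases before the start alone, the shares of member windows with a motif were lower, as a shorter window holds fewer matches: TATAAA 10.7%, CCAAT 10.4%, GGGCGG 7.65%, GAGGAAGT 1.09%, AGATAA 5.19%, CACGTG 1.09%, TGACGTCA 0, the ISRE core 2.19% and TTCNNNGAA 2.46%.

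With the replicate number as a replicate block, 8 members were raised and 4 lowered (143 and 125 of all genes). Same-numbered libraries did not deviate together (correlations from -0.0193 to 0.00427). The correlations ran over all tested genes, those of few reads included, so they cannot settle whether the numbers pair the samples. The share of repeat-masked sequence was planned and not run, since the genome used here carries no repeat mask. Depth limits the small RNAs most.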
